A study of Mus musculus with 12 samples.

Results

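The genes described here encode the protein components of the cytosolic ribosome. They were chosen by symbol alone: a gene row was taken when its symbol began with Rpl or Rps, with or without a p (as in the stalk genes Rplp0, Rplp1 and Rplp2), followed by a number and at most an a, x, y or l and a further digit, and when it carried no pseudogene mark. This gave 83 of the 24062 gene rows, 51 of the large subunit and 32 of the small subunit. Expression was not used in the choice. Rpsa, Fau and Rpl36al encode ribosomal proteins too, but their symbols fall outside the pattern and they are not counted among the 83.

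Polyadenylated RNA was sequenced from 12 mice, 1 library per mouse, in 4 groups of 3. The livers came from male FVB mice carrying LAP-tTA and TRE-MYC (MYC-ON), in which the liver promoter LAP drives tTA, and tTA switches on a human MYC transgene once doxycycline is withdrawn, here at birth. The labels give an age of 45 days for MYC males compared with WT males, and no age for the diet groups apart from this. Livers 101, 102 and 103 were from mice on the control diet and livers 105, 107 and 108 from mice on the No-Trp diet, which lacks tryptophan (Trp). The xenografts grew subcutaneously in female NOD SCID hosts (spelled NOD-SKID in the labels) from HCC53N, a single line of mouse liver tumor cells that lacks p53 and carries mutant NRAS, and whose labels also read FVB MYC ON. Xenografts 40, 41 and 43 were from the control diet and xenografts 35, 36 and 37 from the No-Trp diet. Both diets were given for 21 days. The models therefore differ in host, sex, strain, site and cell line at the same time, and these cannot be told apart. Livers 101 and 108 and xenografts 41 and 43 were deposited under names marked as resubmitted, which may be a sequencing batch and whose meaning the sources used here do not give. No No-Trp xenograft bears this mark.

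Ribosomal proteins are needed in nearly equal numbers, since each ribosome holds a single copy of most of them, and their mRNAs are among the most abundant of a growing cell. MYC and mTOR are the best known regulators of this set. MYC acts on transcription of the genes, while mTOR, through LARP1 and the 4E-BPs, controls translation of their mRNAs, which start with a run of pyrimidines called the 5′ terminal oligopyrimidine (TOP) motif. The libraries measure mRNA only, so translation and ribosome number are not seen in them.

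The letters around the start sites of a few of these genes show what the TOP motif looks like. Each line is 60 bases of RefSeq sequence (GRCm38.p6, the patch release of mm10), 30 before and 30 from the annotated start, on the strand of the gene, with runs of at least 5 C or T in capitals. Rpl38 had the largest diet difference in the xenografts, Rps6 encodes the substrate of S6 kinase, Rpl15 differed between the models, and Rpl7l1 is the gene that differed between diets in the liver.
Rpl38 (chr11:114668550-114668609, + strand): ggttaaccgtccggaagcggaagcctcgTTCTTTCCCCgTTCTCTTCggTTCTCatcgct
Rps6 (chr4:86857338-86857397, - strand): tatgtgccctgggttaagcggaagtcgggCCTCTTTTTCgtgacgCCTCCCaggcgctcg
Rpl15 (chr14:18270957-18271016, - strand): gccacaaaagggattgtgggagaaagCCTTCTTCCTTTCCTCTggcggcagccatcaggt
Rpl7l1 (chr17:46782627-46782686, - strand): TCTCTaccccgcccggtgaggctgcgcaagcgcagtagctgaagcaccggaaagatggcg
A long pyrimidine run spans or adjoins the start in Rpl38, Rps6 and Rpl15, and none lies at the annotated start of Rpl7l1. A promoter window was found for 62 of the 83 genes. A run of at least 7 pyrimidines on the gene's own strand, within 50 bases on either side of the start, was present in 88.7% of them and in 54.2% of all 27025 genes with a window. In the wider window of 250 bases before to 50 after the start, searched on both strands, CCGGAAG (an ETS family core) was held by 40.3% of these genes against 9.9% of all genes, and GCCATCTT (a YY1 core) by 9.7% against 3.2%. The E-box CACGTG, the form that MYC is known to bind, was held by 9.7% against 8.1%, and TATAAA by 11.3% against 15.7%. These are matches of letters and not measured sites.

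Of the reads counted on genes, the 83 genes took 8.65% in control liver 101, 4.80% in 102 and 6.80% in 103, and 4.64%, 3.89% and 6.50% in the No-Trp livers 105, 107 and 108. In the control xenografts they took 8.34% (40), 6.95% (41) and 7.51% (43), and in the No-Trp xenografts 5.24% (35), 5.72% (36) and 6.70% (37). The liver groups overlapped. In the xenografts the 3 No-Trp tumors all lay below the 3 control tumors. Group means were 6.75% ± 1.92 and 5.01% ± 1.35 in livers on the control and No-Trp diet and 7.60% ± 0.697 and 5.88% ± 0.742 in xenografts (SD, n = 3 each). A sum over a gene list is described here without a test, and an exact permutation test (two-sided) on 3 mice against 3 has a smallest p of 0.1. In bulk tissue, fewer cells of a type and less RNA per cell cannot be told apart.

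**Figure D1:**
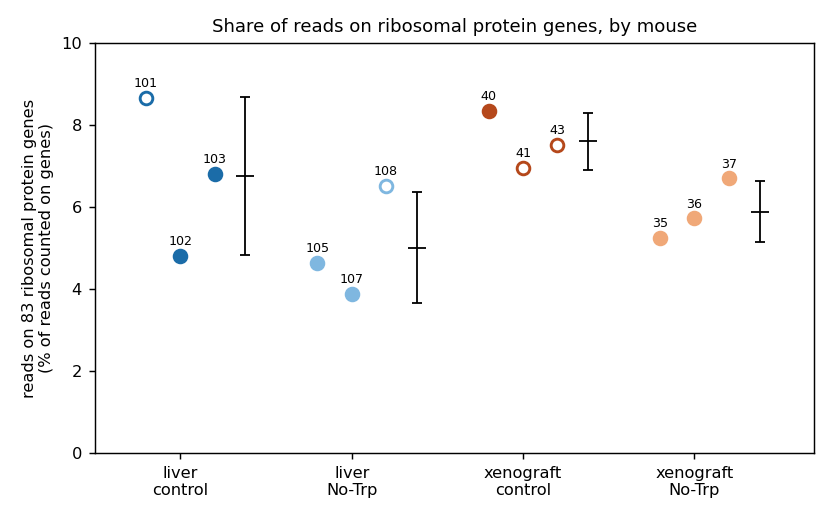
Reads on the ribosomal protein genes as a percent of all reads counted on genes, by library, for livers and xenografts on the control and No-Trp diet. Points are single mice, bars mark the mean ± SD of 3 mice, and resubmitted libraries are drawn as open circles; the No-Trp xenografts (5.24% to 6.70%) lie below the control xenografts (6.95% to 8.34%), while the liver groups overlap.

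The resubmitted livers stood highest within their groups, while resubmitted xenografts 41 and 43 stood below control xenograft 40. Liver 101 also stood apart in its RNA: Rn45s, the non-polyadenylated precursor of ribosomal RNA, took 12.1% of its reads, against 2.22% in liver 102 and at most 0.758% in the other libraries. The balance of the subunits moved far less than their sum. Small subunit genes took 38.2% ± 0.590 and 38.2% ± 0.523 of the member reads in control and No-Trp livers, and 37.4% ± 0.0744 and 37.3% ± 0.346 in control and No-Trp xenografts (SD, n = 3 each).

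Levels are given as CPM, the reads of a gene scaled to the size of its library with TMM factors. Of the 83 genes, 75 had a mean of at least 1000 reads per library. Per kb of the longest annotated transcript, the stalk genes Rplp1 (3132 CPM per kb) and Rplp0 (1833), the small subunit gene Rps12 (2542) and the large subunit genes Rpl23a (1832) and Rpl13 (1719) were highest. The order depends on the length used: over all annotated exons Rps12 ranked 14 of 81 and Rpl13 ranked 32. The lowest tested genes were Rpl30 (0.337 CPM per kb), Rpl3l (0.528), Rpl39l (0.572), Rps27 (1.45) and Rpl34 (2.08).

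These low values are of 2 kinds. Rpl3l, known from heart and skeletal muscle, and Rpl39l and Rpl10l, known from testis, are paralogs with restricted tissues. Rpl3l held 6 to 25 reads, Rpl39l 0 to 25, Rpl10l 0 to 5, and Rps4l, a copy of Rps4x annotated as a transcribed processed pseudogene, 25 to 103. Rpl26, Rpl30, Rpl34 and Rps27 are core proteins of every ribosome, yet Rpl26 had 0 reads in all 12 libraries (a count of 0 allows up to 3 reads, or 0.115 to 0.205 CPM by library, from counting error only), Rpl30 had 1 to 13, Rps27 had 3 to 29 and Rpl34 had 31 to 73. Of the 50-base words in their transcripts, 71.3% (Rpl26), 76.4% (Rpl30), 50.6% (Rpl34) and 98.6% (Rps27) also occur in other annotated genes, mostly pseudogenes. Other members with many shared words held high counts, such as Rps18 with 86.7% and Rps6 with 84.6%. The near-copies that have rows of their own in the deposit (Gm15772, Gm12191, Rpl34-ps1 and Rps27rt) held 0 reads. The levels of these 4 core genes are therefore given as counted reads only. Where their missing reads went was not tested, and reads with more than 1 alignment, which were not counted on any gene, made up 5.24% to 8.52% of the reads.

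The 75 abundant genes moved together from mouse to mouse. Their mean log2 CPM, set against the mean of the 12 libraries, was +0.69 in control liver 101, -0.27 in 102 and +0.04 in 103, and -0.19, -0.13 and +0.31 in the No-Trp livers 105, 107 and 108. In the control xenografts it was +0.32 (40), +0.05 (41) and +0.12 (43), and in the No-Trp xenografts -0.53 (35), -0.31 (36) and -0.10 (37). Control livers 101 and 102 were thus further apart than any control xenograft was from any No-Trp xenograft. Within groups the median SD of a member was 0.326 on the log2 CPM scale. When each gene was expressed as its share of the member reads it was 0.109.

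**Figure D2:**
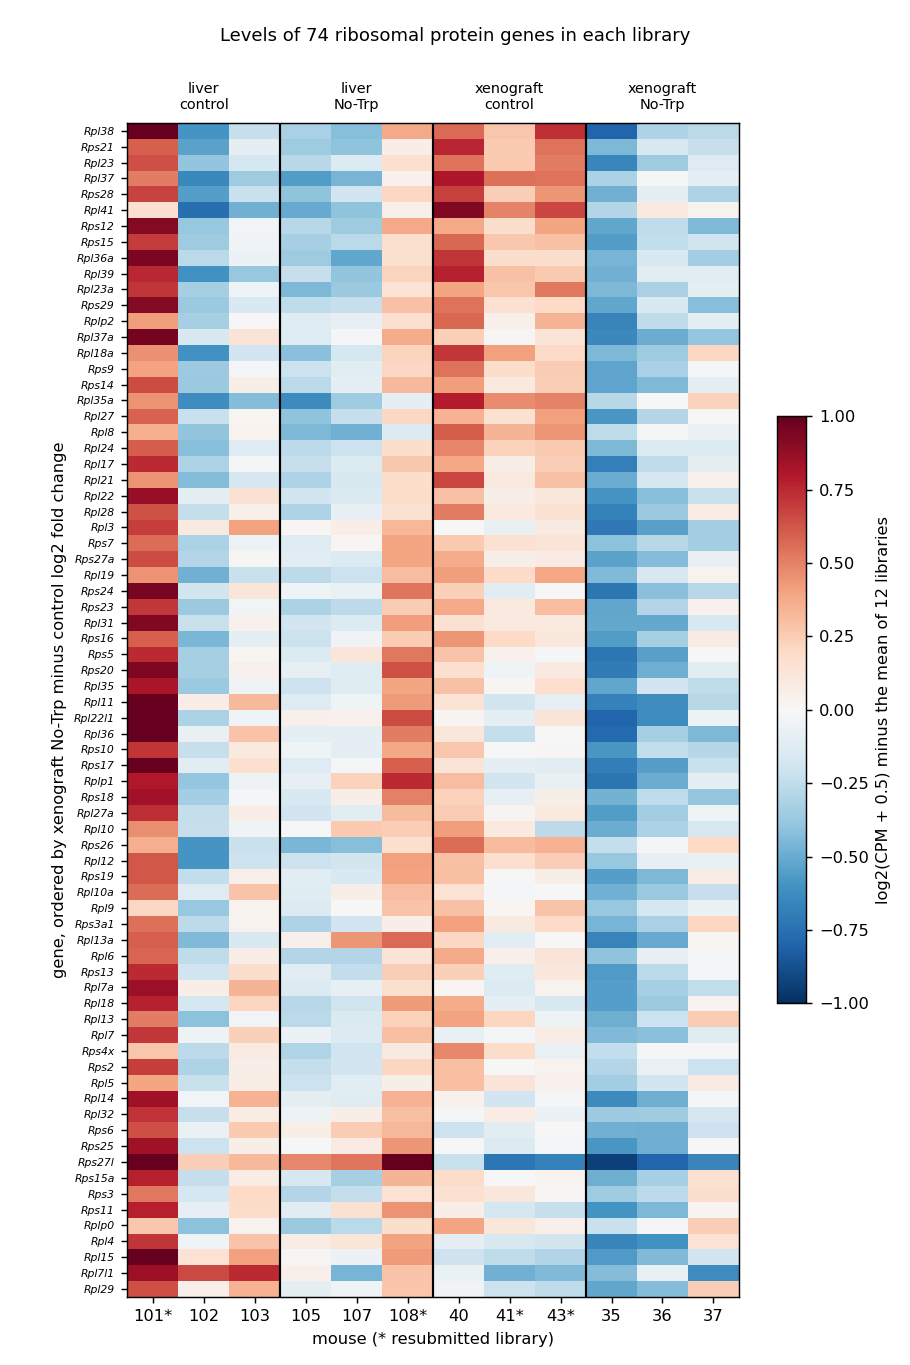
Heat map of 74 of the 75 ribosomal protein genes with a mean of at least 1000 reads (rows, ordered by their log2 fold change with diet in the xenografts) in the 12 libraries (columns, grouped by model and diet, resubmitted libraries starred), coloured by log2 CPM minus the mean of the gene over the 12 libraries. Control liver 101 is high for nearly the whole set, with a mean of +0.69, and No-Trp xenograft 35 is low, with a mean of -0.53.

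Over the 12 libraries, the genes outside the set whose log2 CPM followed the mean of the members most closely were the elongation factor gene Eef1b2 (Pearson r = 0.971), the translocon gene Sec61b (0.947), the nascent chain binding gene Naca (0.939), the ribosomal protein gene Rpsa (0.937) and Gnb2l1 (0.929), which encodes the ribosomal scaffold protein RACK1. These values are a description over libraries that share their groups and scaling.

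The first comparison asks what the diet did in the MYC-ON liver. Of 78 members tested, 1 was lower on the No-Trp diet and none was higher (edgeR quasi-likelihood test, Benjamini-Hochberg adjusted p of at most 0.05 over 14122 genes), while 12% of all genes tested were called lower and 13.3% higher. The gene was Rpl7l1 (ENSMUSG00000063888.7, chr17:46773907-46782672, - strand), which encodes a relative of Rpl7 found in early large subunit precursors. It stood at 225, 197 and 209 CPM in control livers 101, 102 and 103 and at 129, 89.8 and 152 CPM in No-Trp livers 105, 107 and 108. All No-Trp livers lay below all control livers. Its log2 fold change was -0.76 (SE 0.213, edgeR adjusted p = 0.0409). The call was lost without liver 101 (edgeR adjusted p = 0.1), 103 (0.116), 105 (0.104) or 107 (0.0661), and in the fit without the resubmitted livers, where its log2 fold change was -0.90 (adjusted p = 0.0957).

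The other 77 members tested in the liver did not pass. Unadjusted p was under 0.05 in 1 member, against 20.6% of all genes in the lower direction alone, and groups failed to overlap in 1 member (lower) and in no member in the higher direction, against 24.3% and 24.3% of all genes. The members' share of calls was thus below the background of this comparison. The median log2 fold change over the members was -0.16 (quartiles -0.28 and -0.08), with 67 lower and 11 higher, against -0.00 over all genes. This small shift rested on liver 101: without it the median was +0.15, with 21 of 79 lower. It was -0.38 without liver 102, -0.27 without 103, -0.07 without 105 and -0.34 without 108, and without the 4 resubmitted libraries it was -0.04, with 46 of 79 lower.

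The members next to Rpl7l1 in the liver did not pass, and their diet groups overlapped. Rpl7a, a core large subunit protein, stood at 1999, 1159 and 1400 CPM on the control diet and 1006, 1046 and 1233 CPM on the No-Trp diet, with a log2 fold change of -0.46 (SE 0.280, edgeR adjusted p = 0.254). Rpl29 (-0.29, 0.3), Rpl15 (-0.41, 0.307), Rpl36a (-0.50, 0.329) and Rpl22 (-0.40, 0.329) followed, each with its log2 fold change and edgeR adjusted p. The scarce paralogs Rps4l and Rpl3l had estimates of +0.55 (adjusted p = 0.472) and +0.51 (adjusted p = 0.562).

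Markers of other cell types and states moved with diet in the livers. The summed level of 8 hepatocyte markers, which are present in all livers, was 9476 to 39159 CPM on the control diet and 52074 to 128883 CPM on the No-Trp diet. The 5 cycling markers summed to 997 to 1137 CPM and 73.5 to 314 CPM, and the erythroid markers to 48.9 to 536 CPM and 7.26 to 19.7 CPM, with the 4 globin genes of that list at 0 in every control liver. Adipocyte markers summed to 4.82 to 6.31 CPM and 14.3 to 60.8 CPM. This rise lay in Cidec (2.56 to 4.39 and 12.5 to 58.8 CPM). Adipoq and Plin1 were at most 0.466 CPM in every liver, and Cfd overlapped (1.41 to 1.93 and 1.17 to 1.41 CPM). The signs of RNA quality held in the files, Rn45s, Rmrp and Rpph1, had lower estimates on the No-Trp diet (log2 fold changes of -3.49, -5.02 and -5.66) and did not pass (edgeR adjusted p = 0.0603, 0.0635 and 0.0522). The part of these shifts in the liver result was not tested.

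The same question was asked in the xenografts. No member passed (edgeR, 80 tested), and few genes did in all: 0.129% of 14704 genes were called lower and 0.245% higher. At an unadjusted p under 0.05, 49 of 80 members were lower, against 9.07% of all genes, and none was higher. The 3 No-Trp tumors all lay below the 3 control tumors in 50 of 80 members, against 12.4% of all genes, and all above them in none, against 10.3% of all genes. DESeq2 called 11 members, all lower: Rpl23, Rpl23a, Rpl37, Rpl37a, Rpl38, Rpl41, Rps12, Rps15, Rps21, Rps28 and Rps29, against 1.31% of all genes called lower by DESeq2. The members' estimates pointed downward in 77 of 80, with a median log2 fold change of -0.48 (quartiles -0.58 and -0.33) against -0.00 over all genes, at -0.49 over 48 large subunit genes and -0.46 over 32 small subunit genes. The members deviate together, so these counts are not independent observations.

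Rpl38 had the largest difference. It encodes a small protein of the large subunit known from the Tail-short mouse, in which its loss disturbs the axial skeleton. It is annotated at chr11:114668524-114672331, + strand (ENSMUSG00000057322.12). It stood at 438, 360 and 492 CPM in control xenografts 40, 41 and 43 and at 171, 239 and 246 CPM in No-Trp xenografts 35, 36 and 37. The groups did not overlap, and the log2 fold change was -0.99 (SE 0.196, edgeR adjusted p = 0.0717; DESeq2 adjusted p = 0.00208). In the livers the same gene stood at 591, 197 and 253 CPM on the control diet and 237, 221 and 386 CPM on the No-Trp diet, where the groups overlapped (log2 fold change -0.29, adjusted p = 0.65).

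Rpl37, a zinc-binding large subunit protein, had the smallest adjusted p. It stood at 840, 702 and 698 CPM in the control xenografts 40, 41 and 43 and at 385, 473 and 447 CPM in the No-Trp xenografts 35, 36 and 37 (log2 fold change -0.79, SE 0.156, edgeR adjusted p = 0.0684). Rps12 of the small subunit head stood at 1846, 1597 and 1864 CPM and at 992, 1190 and 1046 CPM (-0.73, adjusted p = 0.0792). Neither gene's groups overlapped. Rps21 (-0.82, 0.0823), Rpl23 (-0.82, 0.0954), which encodes one of the ribosomal proteins that bind MDM2, and Rps28 (-0.77, 0.1) came next, each with its log2 fold change and edgeR adjusted p. Set against the sum of the members, the differences of Rpl38, Rpl37 and Rpl23 were -0.51, -0.31 and -0.35, so part of each difference was common to the set.

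**Figure D3:**
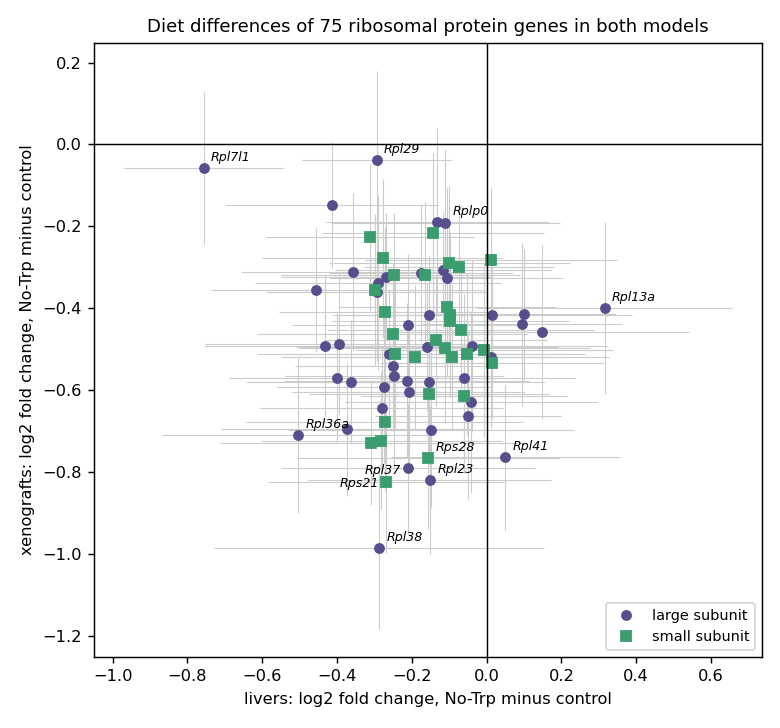
Log2 fold change with diet (No-Trp minus control) in the livers (x axis) and in the xenografts (y axis), for the 75 abundant members, with bars of 1 SE. All 75 lie below 0 on the y axis, while on the x axis they fall on both sides of 0, with Rpl7l1 far to the left at -0.76.

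No single tumor carried the xenograft difference in direction. With each library left out in turn, the median stayed between -0.60 and -0.36, no member passed in any of these fits, and between 27 and 68 members were lower at an unadjusted p under 0.05, against 6.29% to 8.19% of all genes in these fits. Without the resubmitted tumors, control xenograft 40 stood alone against 3 and was assumed to vary like the others: 78 of 81 members were lower, with a median of -0.60, 35 at an unadjusted p under 0.05 (6.78% of all genes) and 0 called. The diet groups also differed in stromal markers. Adipocyte markers summed to 6.42 to 21.4 CPM in control and 207 to 497 CPM in No-Trp xenografts, muscle markers to 1.81 to 17.9 and 27.7 to 56.2 CPM, and endothelial markers to 47.5 to 115 and 127 to 201 CPM. Of the endothelial markers, Lyve1 did not overlap between the diets (5.30 to 14.7 and 43.8 to 60.4 CPM), while Pecam1, Cdh5, Kdr and Stab2 did. Fibroblast markers overlapped (1104 to 4321 and 1740 to 5431 CPM), as did macrophage markers (286 to 402 and 274 to 416 CPM). Cycling markers summed to 415 to 463 CPM on the control and 507 to 655 CPM on the No-Trp diet. Of the signs of RNA quality, Rn45s took 0.464% to 0.758% of the gene reads in control and 0.263% to 0.333% in No-Trp xenografts (log2 fold change -1.18, edgeR adjusted p = 0.0517), and Rpph1 and Rmrp had estimates of -2.34 (adjusted p = 0.0775) and -1.83 (adjusted p = 0.221). Reads with more than 1 alignment made up 6.07% to 8.52% and 5.24% to 5.78%, and reads not counted on a gene 28.5% to 39.4% and 26.4% to 26.8%, in the same order. None of these 3 shares overlapped between the diets. The part of these differences in the result was not tested.

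Members with a known role outside the common structure are given next, by that role. Of the stalk genes, which recruit the elongation factors, Rplp0 had a log2 fold change of -0.19 (SE 0.179) in the xenografts, Rplp1 -0.46 (SE 0.212) and Rplp2 -0.66 (SE 0.204), and in the livers -0.11, +0.15 and -0.05. Rpl5 and Rpl11, which with 5S rRNA bind MDM2, had -0.31 (SE 0.167) and -0.49 (SE 0.172) in the xenografts and -0.17 and -0.43 in the livers. Rps27a, made as a fusion to ubiquitin, had -0.52 (SE 0.178) and -0.09, in the same order. None of these passed in either model.

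Rps6, whose protein is phosphorylated by S6 kinase, stood at 647, 695 and 750 CPM in control xenografts 40, 41 and 43 and 535, 532 and 645 CPM in No-Trp xenografts 35, 36 and 37, with a log2 fold change of -0.30 (edgeR adjusted p = 0.361). Rps19, the gene most often mutated in Diamond-Blackfan anemia, had -0.42 (SE 0.200), Rpl10, a late-joining large subunit protein, -0.44 (SE 0.199), and Rps3, at the mRNA entry site, -0.23 (SE 0.179). Rps18 serves as a reference gene for RT-qPCR in the study. It stood at 1296, 573 and 719 CPM in the control livers 101, 102 and 103 and 652, 759 and 1028 CPM in the No-Trp livers 105, 107 and 108. In the xenografts it stood at 850, 684 and 756 CPM (40, 41 and 43) and 523, 609 and 555 CPM (35, 36 and 37). The liver groups overlapped and the xenograft groups did not, with log2 fold changes of -0.07 (adjusted p = 0.898) and -0.45 (adjusted p = 0.191).

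Whether the diet differences differed between the models was tested by the interaction term over all 12 libraries. No member passed with edgeR or with DESeq2, while 15.6% of all genes did with edgeR, and 2 of 81 members had an unadjusted p under 0.05, against 32.2% of all genes. These were Rpl7l1 (+0.73, SE 0.293, adjusted p = 0.109) and Rpl41 (-0.79, SE 0.356, adjusted p = 0.15). Next by p, and not passing, were Rplp2 (-0.59, 0.23), Rpl9 (-0.49, 0.24) and Rpl13a (-0.69, 0.251), each with its log2 difference and edgeR adjusted p, and the scarce Rpl39l and Rps27 had estimates of -1.2 and -0.89. The median over the members was -0.30, with 73 of 81 lower in the xenografts' diet difference than in the livers'. The term depended on single libraries. It was larger without liver 101, where the median was -0.62 and Rpl23 (-1.02), Rpl38 (-1.30) and Rpl41 were called lower, against 5.19% of all genes in that fit. The median was nearest to 0 without liver 102 (-0.11), liver 108 (-0.12) and xenograft 35 (-0.20). Without each of the remaining libraries it lay between -0.40 and -0.22. The lower estimates in the xenografts are therefore not shown to differ from those in the livers with all libraries in the fit.

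The models were then compared on each diet. Hepatocyte markers summed to 9476 CPM or more in every liver and to at most 873 CPM in every xenograft, and Rn45s was lower in control xenografts than in control livers by -3.28 on the log2 scale (edgeR adjusted p = 0.00657). Their part in these contrasts was not tested. These contrasts use the same libraries as the diet comparisons and are not independent of them. On the control diet 5 of 81 members were higher in xenografts than in livers and 3 lower, against 30.8% and 28.7% of all genes. Of the 5, Rpl39l and Rps27 passed the filter on low counts only through the xenografts, where they are higher, so their calls had to go that way and are not counted on here, which leaves 3 higher. At 2-fold or more, 5 members passed in either direction with these and 3 without, against 43.5% of all genes. The members were thus called far less often than the table as a whole, with a median of -0.00.

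The scarce pair is given by reads alone. Rpl39l, the testis paralog of Rpl39, held 57 reads over the 3 control xenografts and 4 over the 3 control livers, a ratio of 16.3 after scaling (95% interval 6.01 to 61.7, counting error only). On the No-Trp diet it held 56 and 5 reads, a ratio of 9.48 (3.83 to 30.3). Both intervals pool the reads of 3 mice per group, leave out the spread between mice and are not used as a test. The paralog made up at most 0.334% of the reads of Rpl39 in any library. Rps27 held 14, 16 and 23 reads in control xenografts 41, 43 and 40 and 6, 4 and 10 in control livers 101, 102 and 103.

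Among abundant members, Rpl41, the shortest ribosomal protein gene product, stood at 1754, 1309 and 1468 CPM in control xenografts 40, 41 and 43 and 1041, 550 and 662 CPM in control livers 101, 102 and 103 (log2 fold change 1.01, edgeR adjusted p = 0.00461). Rpl35a and Rpl37 were higher by 0.71 and 0.71 (adjusted p = 0.0354 and 0.0392). Rps27l, a paralog of Rps27 that p53 is known to induce, stood at 121, 85.7 and 88.3 CPM in the control xenografts, whose cells lack p53, and 360, 168 and 177 CPM in the control livers (log2 fold change -1.26, adjusted p = 0.00238). A part of p53 in this difference was not tested and cannot be told apart from host, sex, strain, site and cell line. Rpl7l1 was lower in xenografts by -1.08 (adjusted p = 0.000814), and Rpl15, a large subunit protein whose gene is mutated in some cases of Diamond-Blackfan anemia, by -0.82 (adjusted p = 0.00736), a call that was lost with offsets for length and GC content. The number of calls moved with single libraries. Without liver 101, 19 members were higher and 3 lower, against 28.3% and 26.3% of all genes. Without liver 102, 2 were higher and 14 lower, against 27.3% and 26.6%. Without liver 103, xenograft 40 or xenograft 43, 2 were higher and 3 lower, against 27% to 28.5% and 25.3% to 26%.

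On the No-Trp diet 5 members were lower in the xenografts, against 26.4% of all genes. The single member called higher, against 33.2% of all genes, was Rpl39l, which again entered the test only through the xenografts. At 2-fold or more 2 passed with Rpl39l and 1 without, against 43.7% of all genes. Rps27l had the lowest value again, at 74, 81.2 and 89.1 CPM in No-Trp xenografts 35, 36 and 37 and 197, 206 and 300 CPM in No-Trp livers 105, 107 and 108 (log2 fold change -1.52, edgeR adjusted p = 0.000655). Also lower were Rpl3 (-0.67, 0.00971), which lies near the peptidyl transferase center, Rps6 (-0.60, 0.0174) and Rpl13a (-0.72, 0.0422), each with its log2 fold change and adjusted p. Rps4l (-0.96, adjusted p = 0.146), Rplp1 (-0.75, 0.0596) and Rpl22l1 (-0.73, 0.0641) did not pass. With offsets for length and GC content Rpl3, Rps6 and Rpl13a no longer passed, and 3 members were higher and 6 lower. The median over the members was -0.32, against 0.15 over all genes. This direction depends on scaling: when CPM was scaled by library totals alone, 8 members were higher and 1 lower, and the median was +0.20, against 0.68 over all genes. In that fit 10034 of 15472 genes were called in either direction. The number of calls also moved with single libraries, with 21 members lower without liver 101, 14 without liver 102, 11 without xenograft 37, 3 without liver 108 and 2 without xenograft 35 or 36. In these fits 23.8% to 26.8% of all genes were called lower.

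The resubmission mark was compared within groups, resubmitted minus other. No member passed, and 0% of all genes did (edgeR; DESeq2 called 0 members). The members' estimates were higher in resubmitted libraries in 79 of 81, with a median log2 difference of 0.35 against 0.02 over all genes, and 17 had an unadjusted p under 0.05 in that direction, against 3.15% of all genes. The exceptions were Rpl3l (-0.76) and Rps27 (-0.72), both with few reads. The largest among abundant members were Rpl38 (0.70, SE 0.230), Rpl22l1 (0.59, SE 0.210) and Rps12 (0.57, SE 0.199), with Rpl31 (0.51) and Rpl23a (0.48) next by p, and edgeR adjusted p was at least 0.693 for every member. The size depended on single libraries, with a median of 0.11 without liver 101 and of 0.62 without xenograft 40, where 66 members had an unadjusted p under 0.05, against 6.80% of all genes in that fit. Rn45s (1.38), Rmrp (2.10) and Rpph1 (1.6), RNAs without a poly(A) tail, also had higher estimates in resubmitted libraries and did not pass (edgeR adjusted p of at least 0.693), and their part was not tested. The estimates pool both models, which went opposite ways in the share of reads on the members. Resubmitted livers 101 (8.65%) and 108 (6.50%) were the highest of their groups. Resubmitted xenografts 41 (6.95%) and 43 (7.51%) lay below control xenograft 40 (8.34%). Since control xenografts 41 and 43 are resubmitted and no No-Trp xenograft is, the mark is unevenly spread over the diets of the xenografts. With resubmission as a covariate the median xenograft difference was -0.60. In that fit the diet term rests on control xenograft 40 alone against the 3 No-Trp tumors. The interaction with the same covariate uses all 12 libraries. Its median was -0.09, with 57 of 81 members lower, against -0.30 and 73 of 81 without the covariate.

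Coding length sorted the members in some comparisons and not in others. Over the 75 abundant members, Spearman's rho between the number of codons and the log2 fold change was 0.56 for the diet in the xenografts (0.21 over all genes), -0.04 in the livers (-0.01 over all genes), 0.46 for the interaction (0.09) and -0.65 for resubmission (-0.09). Members under 150 codons (34 genes) had a median xenograft difference of -0.54 and the other 41 of -0.41. For resubmission these medians were 0.41 and 0.29. Shorter coding lengths thus went with lower values in the No-Trp xenografts and with higher values in the resubmitted libraries. With offsets for length and GC content in the fit, the median xenograft difference was -0.39, with 76 of 80 lower. The points share libraries and scaling, so these are descriptions across genes.

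**Figure D4:**
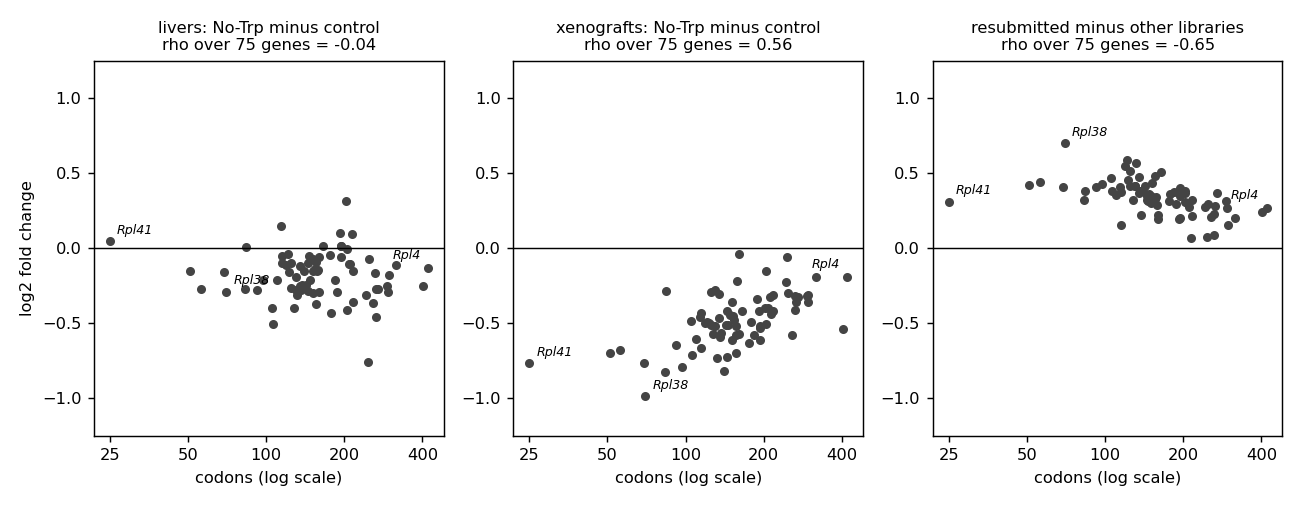
Log2 fold change of the 75 abundant ribosomal protein genes against the number of codons (log axis) for diet in the livers (left), diet in the xenografts (middle) and resubmitted minus other libraries within groups (right). Short genes lie lowest in the xenograft panel (rho = 0.56) and highest in the resubmission panel (rho = -0.65), with no slope in the liver panel (rho = -0.04).

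The number of Trp codons was counted because the diet lacked Trp. Of the 75 abundant members, 20 (26.7%) encode no Trp, against 6.39% of 14637 genes tested and 12.3% of the 6924 genes no longer than the longest member. The members together hold 0.788 Trp codons per 100 codons, against 1.18 over all genes, and Rpl4 has the most, with 6. Members with 0, 1 and at least 2 Trp codons (20, 27 and 28 genes) had median diet differences of -0.18, -0.21 and -0.14 in the livers and -0.52, -0.50 and -0.42 in the xenografts. These medians differed by less than the quartile range of the members, and coding length was not held fixed in this comparison.

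Paralogs were set against their partners by reads in the same library, which cancels what the set shares (8 pairs with reads were computed, and read shares are not corrected for length). Rpl22l1 reads were 42.5%, 33.2% and 34.1% of Rpl22 reads in control livers 101, 102 and 103 and 46.1%, 44.4% and 53.8% in No-Trp livers 105, 107 and 108. All No-Trp livers lay above all control livers, with means of 36.6% ± 5.10 and 48.1% ± 4.99 (SD, n = 3 each), a separation whose exact permutation p is the smallest possible here, 0.1. In the xenografts the groups overlapped, at 35.7% ± 3.65 and 37.1% ± 5.75. Within each liver diet the resubmitted mouse was highest, and without them the means were 33.7% and 45.2%. The encoded proteins are alternative forms of the same large subunit protein, and RPL22 is known to repress expression of Rpl22l1.

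Rpl7l1 reads were 17.4% ± 3.35 of Rpl7 reads in control livers and 11.9% ± 1.82 in No-Trp livers, and the lowest control liver (101, 13.9%) lay just above the highest No-Trp liver (105, 13.5%). In the xenografts they were 10.1% ± 2.08 and 12.4% ± 3.52 (SD, n = 3 each), and these groups overlapped. Rpl36al reads were 60.8% ± 11.8 and 78.9% ± 11.9 of Rpl36a reads in control and No-Trp livers and 46.6% ± 3.11 and 55.1% ± 2.08 in control and No-Trp xenografts, and here the diet groups did not overlap in either model, though in the livers they nearly touched (70.3% in control liver 102 and 70.5% in No-Trp liver 108). Of the 50-base words of Rpl36a, 85.5% occur in other genes, and of those of Rpl36al 63.3%. For Rpl22l1 and Rpl22 these shares are 61.6% and 5.2%, and for Rpl7l1 and Rpl7 they are 9.2% and 53.3%. Reads of genes with many shared words are less certain, and so are the ratios built on them. Rps4l, Rpl3l and Rpl39l stayed at or under 0.534%, 0.120% and 0.334% of their partners in every library.

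**Figure D5:**
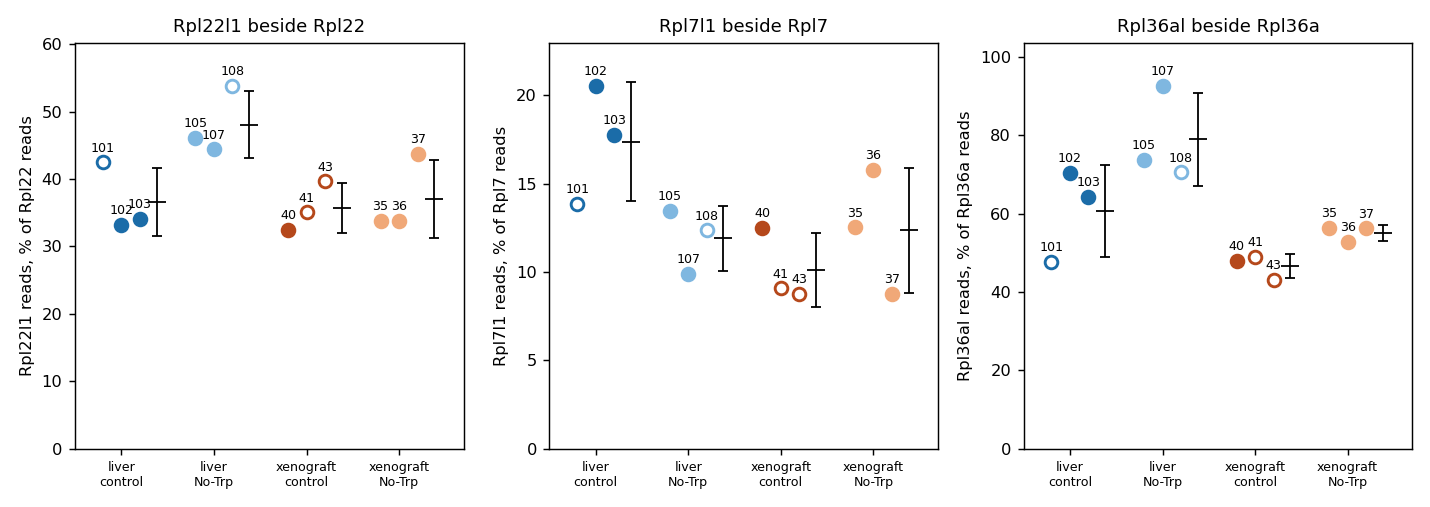
Reads of Rpl22l1, Rpl7l1 and Rpl36al as a percent of the reads of Rpl22, Rpl7 and Rpl36a in each library, by model and diet. Points are single mice, open circles are resubmitted libraries and bars are mean ± SD of 3 mice; in the livers Rpl22l1 has a mean of 36.6% of Rpl22 on the control and 48.1% on the No-Trp diet, while the xenograft groups overlap.

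Other genes of this pathway were taken as lists. Of 26 other TOP mRNAs, 5 were lower in No-Trp livers and none higher, against the 12% and 13.3% of all genes given above: the histone chaperone genes Npm1 (-1.16) and Nap1l1 (-1.29), the guanine nucleotide synthesis gene Impdh2 (-1.29), the splicing regulator gene Hnrnpa1 (-0.99) and the snoRNA host gene Snhg5 (-1.54). Their median was -0.30 in the livers and -0.28 in the xenografts, where 24 of 26 were lower and none was called. In the interaction 3 were called higher (Eif2s3x, Impdh2 and Nap1l1) and 1 lower (Eif3f), against 15.6% of all genes in either direction. Npm1 stood at 3359, 2148 and 2623 CPM in control livers and 1291, 790 and 1534 CPM in No-Trp livers, and its groups did not overlap. Hnrnpa1 was counted at a low level, at 24.9, 13.4 and 14.3 CPM in control livers and 9.09, 7.19 and 9.79 CPM in No-Trp livers. The liver calls of Hnrnpa1, Npm1 and Snhg5 lay close to the threshold (edgeR adjusted p = 0.0489, 0.0457 and 0.0417).

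Of 12 regulators of TOP mRNAs, the liver comparison called 2 higher (Larp1b, 0.77, and the kinase gene Mtor, 0.62) and 2 lower (the S6 kinase gene Rps6kb1, -0.53, and Tial1, -0.56), shares close to those of all genes, and the xenograft comparison none. In the interaction Larp1 was called (0.81), against 15.6% of all genes in either direction. Of 8 dedicated chaperones of ribosomal proteins, 3 were lower in No-Trp livers, against 12% of all genes: the Rpl3 chaperone gene Grwd1 (-1.04), Pdcd2l (-0.84) and the Rps26 chaperone gene Tsr2 (-1.13). None was called in the xenografts. The interaction called 3 higher (Heatr3, 0.86, Ltv1, 0.92, and Tsr2, 1.22), against the same 15.6% of all genes.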

How the data were processed

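The deposited values are raw read counts per gene symbol, 1 file per mouse. The authors trimmed reads with Trim Galore, aligned them to mm10 with STAR 2.7.2b, sorted them with SAMtools 1.9 and counted them with HTSeq. Strand and overlap settings are not given in the sources used here. Reads on genes numbered 14660963 to 26085349 per library, and uncounted reads (24.7% to 39.4%) were left out. Replicate libraries differed by 34.6 to 274 times counting noise. Whether mice share a litter or cage is not stated, so p-values measure only the spread between these samples.

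Counts were compared with edgeR 4.0.16 in R 4.3.3 (two-sided glmQLFTest after robust glmQLFit, with TMM factors and filterByExpr), diets within each model and other contrasts over all 12 libraries, with Benjamini-Hochberg adjustment over all genes. DESeq2 1.42.0 was an alternative. Others were RLE factors, library totals, TMM factors without the members, low-count filters, Rn45s left out, length and GC offsets, resubmission as covariate, other sample sets, the study's fold threshold and leaving out each library. Leaving out all resubmitted libraries and a RefSeq transcript length were chosen after seeing the data. Steps were tested on simulated data, with changes put into genes drawn from all genes tested and not from the members alone. Of the 1.5-fold changes, 0% were called for the liver diet, 2% for the xenograft diet and 0% for the interaction. At 2-fold these were 8%, 40% and 8%. A lack of calls therefore does not show a lack of changes of this size.

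Symbols were matched to GENCODE M21 (98.5%). Members and lists were chosen with earlier results of these data known. Named were the 5 members with the smallest adjusted p and the 5 with the largest change per comparison, paralogs, the 5 highest and 5 lowest per length, members with a fixed role and those that passed no filter. The lymphocyte and neutrophil lists summed to 0.700 to 3.86 and 6.76 to 103 CPM over all libraries. The values of a further member and of a list are not reported here.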

Additional observations from a re-analysis of the deposited data

How the results depend on the processing

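No paired analysis was possible because no 2 groups share a replicate number. In the livers, 0 members were called at the study's fold threshold, 0 without the resubmitted libraries and 0 to 1 with a library left out. In the xenografts, 1 was called with no filter on low counts (Rpl38) and 11 with DESeq2. Between models on the control diet, calls numbered 5 at the study's threshold, against 43.5% of all genes. With length and GC offsets they numbered 21 (17 higher, 4 lower), against 29.9% and 30.3% of all genes. They numbered 14 with resubmission as a covariate (5 higher, 9 lower), where 8941 of 15472 genes were called, and 5 to 22 with a library left out. On the No-Trp diet they numbered 18 with RLE factors, 18 with DESeq2 (1 higher, 17 lower in each) and 11 without Rn45s. RLE factors called 9166 of 15472 genes, DESeq2 24.1% higher and 23.1% lower, and the fit without Rn45s 9167 of 15379. Members called numbered 9 with length and GC offsets (3 higher, 6 lower), against 30.5% and 29.8% of all genes. They numbered 17 in the 6 libraries of that diet, where 8637 of 14783 genes were called. At the study's threshold they numbered 2, against 43.7% of all genes, and with a library left out 3 to 22. The median over the members was 0.20 with library totals. For the interaction, the median was 0.042 with library totals, against 0.41 over all genes, and -0.09 with resubmission as a covariate. It was -0.62 to -0.11 with a library left out. In this comparison 1 member (Rpl41) was called lower with length and GC offsets, against 9.26% of all genes, and 0 to 3 members with a library left out. The causes were not tested. No named gene was reversed in sign while called. This check did not cover the medians over the members, some of which changed sign. The liver median went from -0.16 to +0.15 without liver 101. With library totals, the median between models on the No-Trp diet went from -0.32 to +0.20. That of the interaction went from -0.30 to 0.042. Library totals moved the median of all genes in the livers to -0.30. Depth limits Rpl26, Rpl30, Rps27, Rpl10l, Rpl39l and Rpl3l, each with at most 29 reads in a library.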
